A study of Mus musculus with 9 samples.

Results

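Mediator is the large complex that carries signals from transcription factors bound at enhancers to RNA polymerase II at promoters. It is built from a head and a middle module, which contact the polymerase, a tail module, which receives many of the activators, a scaffold subunit, MED14, that ties these together, and a separable kinase module that contains cyclin C with CDK8 or CDK19. MED4, the subunit depleted in these cells, belongs to the middle module. The genes of the complex itself were examined here: 32 mouse genes encoding Mediator subunits, with every accessible region whose centre lay in the annotated gene body or within 10 kb of either end of the gene. This rule took 235 of the 146734 regions in the data, and all 235 passed the filter on low values.

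Chromatin accessibility was measured by bulk ATAC-seq, in which a transposase inserts sequencing adapters into open DNA, in the murine breast carcinoma cell line D2A1-d. The control cells were transduced with a non-targeting control (NTC) and are labelled wild type. The other cells were transduced with 1 of 2 short hairpin RNAs against Med4, called shMed4 #1 and shMed4 #4, and are labelled as a Med4 knockdown. There were 3 libraries labelled as biological replicates in each of the 3 groups, and all 9 are labelled as untreated and come from the 1 cell line. The values are normalised read counts per region, called peaks below and placed on mm10 (GRCm38). The study's title concerns MED4 and metastatic dormancy, and the comparisons ask how accessibility differed between cells with and without the hairpins. A hairpin acts on the transcript, so no value here measures how far Med4 RNA or protein was lowered. In a bulk sample, fewer cells with a region open and less access per cell cannot be told apart. The promoter of the hairpin vector and the number of transductions are not given in the sources used here.

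Each library had between 44753019 and 98898174 reads in peaks. No pair of libraries agreed within counting noise, so none were merged: the chi-square per degree of freedom was 1.995 to 2.917 within groups and 9.962 to 29.06 between groups. Where nothing says that libraries of a group came from separate transductions, p-values measure only the spread between these libraries. Of 11 marker genes of epithelial, mesenchymal, leukocyte and endothelial cells, 4 had a peak within 1 kb of a gene end. The vimentin gene Vim was high in NTC (4155 ± 227, SD, n = 3, as for all means below) and went to 3072 ± 18.1 with hairpin #1 and 3085 ± 176 with #4, and the mesenchymal receptor gene Pdgfrb went from 1180 ± 47.0 to 1014 ± 27.7 and 942 ± 37.3. The peak of the keratin gene Krt18 rose from 164 ± 5.60 to 368 ± 18.1 and 465 ± 39.1 (log2 fold 1.33 over both), and the peak of Cdh5, an endothelial cadherin, rose from 239 ± 10.1 to 433 ± 33.7 and 282 ± 18.4. No such peak was listed for the epithelial genes Krt8, Epcam and Cdh1, the leukocyte genes Ptprc and Cd3e, Pdgfra or Pecam1. The part of these marker differences in the results below was not tested.

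The modules differed widely in how many peaks their genes held. The 6 kinase module genes held 91 peaks and the 9 tail genes 74, against 49 for the 9 middle genes, 18 for the 7 head genes and 3 for Med14. Med13l alone, a gene of 205109 bases, held 34 peaks, and Cdk19, of 134532 bases, held 21. Med6, Med8, Med10 and Med11 held 1 each. In all, 141 peaks lay inside the gene body and 94 in the flanks. Of the 235, 33 also lay inside another protein-coding gene and 31 lay within 1 kb of another gene's end. Peaks centred no more than 1 kb from an end of their own gene are called gene-end peaks below. There were 40 of these, and 31 of the 32 genes had at least 1. The highest of them by mean over the libraries was taken to stand for each gene, and in 6 genes it also served the end of a neighbour. Which exon or intron a peak fell in was not analysed here.

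The promoter sequences of these genes were searched for short motifs. RefSeq promoter windows, from 250 bases before to 50 after an annotated start on GRCm38.p6, were matched to 27 of the 32 genes by symbol and gave 31 windows. The genes not matched were Cdk19, Med8, Med23, Med24 and Med30. Among the 31 gene ends that stand for a gene, Med6 fell most, on the deposited scale, of those not shared with a neighbour. Med14 was the only 1 of the 31 that rose over both hairpins. Med19 was the most accessible of them and the one on which the hairpins differed most. The 5 windows printed below are those of Med6, Med14 and Med19, of Med4, the hairpins' target, and of Med10, whose single peak lies over an internal start. All are written 5′ to 3′ on the gene's strand, and capitals mark matches on either strand to 7 short motifs: CCGGAAG (ETS factors), CCAAT (NF-Y), GGGCGG (SP factors), ATGGCGG (YY1), GCGCATG (NRF1), TGACGT (a half-site of the cAMP response element) and TATAAA (the TATA box). Matches that overlap run together in capitals.
Med4, chr14:73509799-73510098, plus strand: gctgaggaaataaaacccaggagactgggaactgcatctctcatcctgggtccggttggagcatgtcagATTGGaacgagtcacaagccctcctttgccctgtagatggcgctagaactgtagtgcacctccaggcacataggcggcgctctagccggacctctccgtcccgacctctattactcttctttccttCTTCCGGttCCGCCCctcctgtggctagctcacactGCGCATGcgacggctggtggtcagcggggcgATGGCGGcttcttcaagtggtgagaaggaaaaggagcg
Med6, chr12:81594959-81595258, minus strand: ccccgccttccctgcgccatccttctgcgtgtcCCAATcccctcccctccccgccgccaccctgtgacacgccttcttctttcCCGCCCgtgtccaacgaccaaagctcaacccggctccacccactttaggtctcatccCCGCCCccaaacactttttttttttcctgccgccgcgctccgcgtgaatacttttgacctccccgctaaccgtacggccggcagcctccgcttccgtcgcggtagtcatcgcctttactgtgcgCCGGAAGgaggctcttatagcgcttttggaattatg
Med14, chrX:12761924-12762223, minus strand: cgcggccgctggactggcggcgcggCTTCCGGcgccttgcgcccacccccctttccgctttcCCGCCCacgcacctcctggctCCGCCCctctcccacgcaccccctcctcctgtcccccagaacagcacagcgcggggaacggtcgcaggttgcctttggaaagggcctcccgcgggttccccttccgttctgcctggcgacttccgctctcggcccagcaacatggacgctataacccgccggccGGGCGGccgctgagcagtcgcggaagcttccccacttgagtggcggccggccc
Med19, chr2:84678152-84678451, plus strand: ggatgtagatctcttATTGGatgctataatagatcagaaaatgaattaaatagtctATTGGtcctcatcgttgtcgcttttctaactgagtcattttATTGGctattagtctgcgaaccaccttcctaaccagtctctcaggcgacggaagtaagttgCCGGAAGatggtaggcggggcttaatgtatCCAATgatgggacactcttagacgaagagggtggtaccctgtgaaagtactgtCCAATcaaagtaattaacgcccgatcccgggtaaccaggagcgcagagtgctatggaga
Med10, chr13:69809632-69809931, plus strand: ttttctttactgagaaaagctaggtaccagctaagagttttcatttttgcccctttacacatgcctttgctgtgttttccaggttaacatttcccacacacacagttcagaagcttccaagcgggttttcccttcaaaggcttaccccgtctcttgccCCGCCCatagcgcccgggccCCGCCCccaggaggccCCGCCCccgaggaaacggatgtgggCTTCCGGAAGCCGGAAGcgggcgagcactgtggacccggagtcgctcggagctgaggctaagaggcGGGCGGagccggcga

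The Med4 window held 5 of the 7 motifs: NF-Y at -181, ETS at -55, SP at -46, NRF1 at -19 and YY1 at 12, counted from the start site at 0 to the first base of the match. The Med19 window held 5 NF-Y matches and 1 ETS match, and the Med10 window 3 ETS matches within its last 31 bases before the start. An ETS match was found in 9 of the 31 windows (29.0%), against 8.86% of all 32851 windows in the table and 18.1% of the 11856 that overlap a tested peak. NRF1 was found in 19.4% of member windows, against 3.91% of all and 7.0% of those overlapping a peak, and YY1 in 16.1%, against 4.05% and 8.13%. SP was found in 61.3%, close to the 62.1% of windows overlapping a peak. NF-Y stood at 38.7% against 38.8%, the half-site at 12.9% against 11.9% and the TATA box at 9.68% against 6.97%. The median GC content was 57.7% in member windows, 52.7% in all windows and 60.7% in windows overlapping a peak. Of the 31 member windows, 23 overlap a tested peak, so the windows overlapping a peak are a more selected set. Each window of a gene with more than 1 was counted. Med7 and Med15 each gave 2 windows that overlap each other, all with an NRF1 match, and the other NRF1 windows are those of Med4 and Med17. The 2 Med15 windows also hold the same ETS matches, so both are among the 9. The 2 Med7 windows likewise hold the same SP and NF-Y matches. A match is a run of letters and not a measured binding site.

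In NTC the gene ends of the subunit genes spanned a range from 544 ± 24.2 normalised reads at Med4, the lowest of the 31, to 4128 ± 28.7 at Med19. After Med19 came Cdk19 (3074 ± 42.0), Med29 (2924 ± 111) and Med11 (2574 ± 96.9). Next above Med4 came Med13l (639 ± 42.5), Cdk8 (697 ± 32.5), Med25 (716 ± 12.3) and Med28 (743 ± 37.2), and the library ranges of Med13l and Cdk8 overlapped. Med4 lay at the 43.7th percentile of all gene-end peaks in NTC and Med19 at the 97.9th. Peaks at gene ends were higher than the others, with a median NTC level of 1167 against 248.7 for the 195 member peaks away from their own gene's ends. The most accessible member peak of all lay inside Med13l (chr5:118612999-118613500) at 4588 normalised reads, and one inside Cdk8 (chr5:146273026-146273527) stood at 3696; neither was called in the comparison of both hairpins with NTC (log2 folds 0.07 and 0.08).

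**Figure D1:**
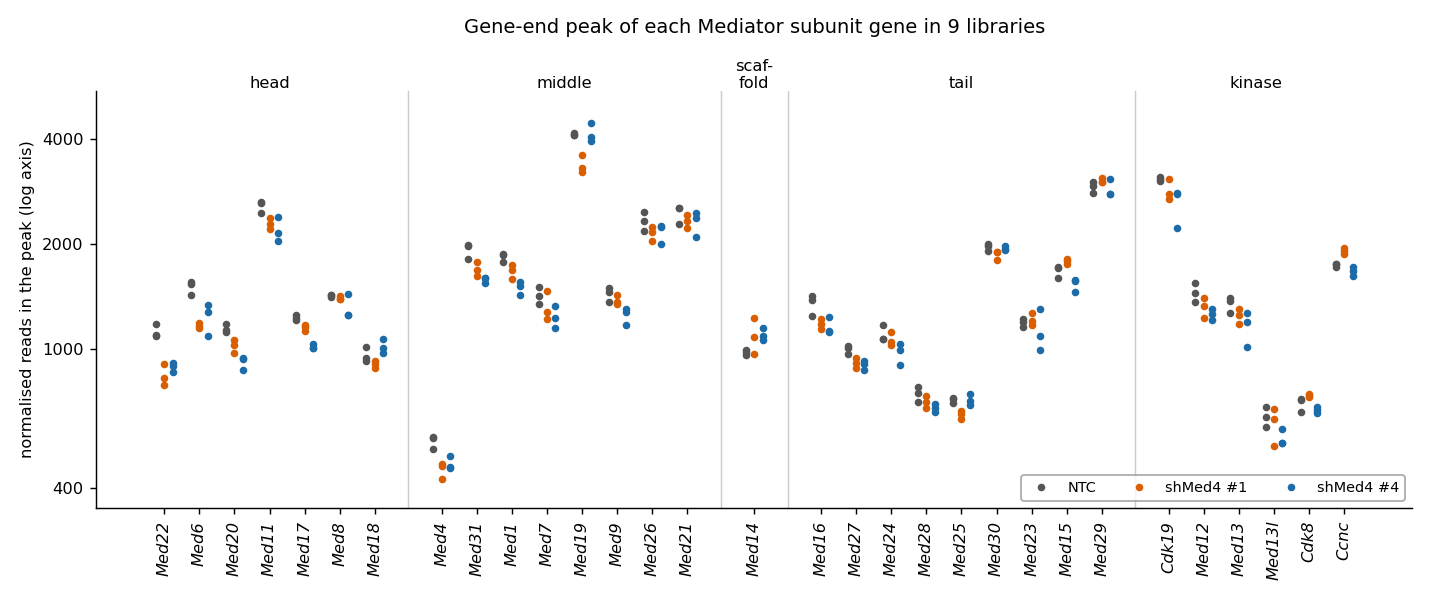
Normalised reads in the gene-end peak of each of the 31 subunit genes (log axis), 1 point per library, coloured by group and ordered by module. Med4 is the lowest gene end in NTC at 544 and Med19 the highest at 4128, and the groups lie close together at most genes.

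With both hairpins together against NTC, Mediator gene ends shifted down by small amounts. Of the 31 genes, 16 had a lower gene-end peak, 1 a higher one and 14 were not called (limma, Benjamini-Hochberg adjusted p under 0.05 over all tested peaks). That is 54.8% called, and 53.2% of all 16292 tested gene-end peaks were called in this comparison, 41.1% lower and 12.1% higher. The median log2 fold over the 31 was -0.13, beside -0.12 over all gene-end peaks, so the share called and the median lay near those of gene ends at large. The 31 are each the highest gene-end peak of their gene, whereas the 16292 include every such peak. Over all 40 member gene-end peaks, 19 were lower and 2 higher (52.5% called, median -0.14). Over all 235 member peaks, 77 fell and 33 rose (46.8% called), against 54.1% of all peaks, of which 26.2% fell and 27.9% rose. The median over the member peaks was -0.11, beside -0.02 over all peaks. Away from the genes' own ends, 58 of 195 member peaks fell and 31 rose, where 54.2% of all such peaks were called, 24.4% lower and 29.9% higher. These directions depend on the scaling: with each library centred on its gene-end peaks, which moved the median of all tested peaks from -0.02 to 0.09, 6 gene ends were lower (Med1, Med6, Med11, Med20, Med22 and Med31) and 3 higher (Med14, Med29 and Ccnc), and 28 member peaks fell while 51 rose. All folds below are on the scale of log2 of the deposited value plus 1.

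**Figure D2:**
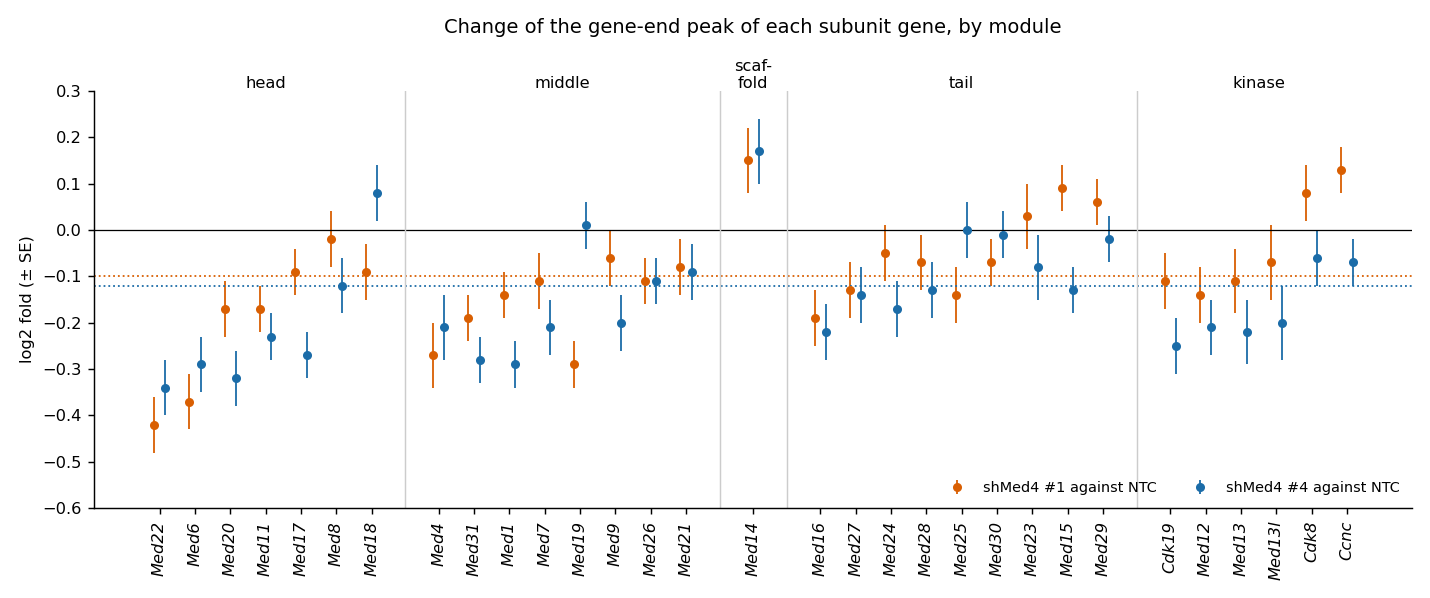
Log2 fold of each subunit gene's gene-end peak with hairpin #1 and hairpin #4 against NTC (points, bars are SE), ordered by module. Dotted lines mark the medians of all gene-end peaks, -0.10 for #1 and -0.12 for #4; Med22 lies lowest with #1 at -0.42, and Med14 lies above 0 with both.

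The head module, which binds the polymerase and helps to place it at the promoter, held the largest gene-end falls on the deposited scale. Of its 7 genes, 5 had a lower gene end, none a higher one and Med8 and Med18 were not called, with a median of -0.20. Those 5 are 71.4%, against 41.1% of all gene-end peaks, whose median was -0.12. The difference between modules was not tested. Med22 encodes a small head subunit, and its gene end on chr2:26909979-26910480 lies inside Med22 and within 1 kb of an end of the ribosomal protein gene Rpl7a. It held 1101, 1093 and 1179 normalised reads in NTC, 907, 792 and 825 with hairpin #1 and 912, 894 and 863 with hairpin #4. The lowest NTC library lay above all 6 hairpin libraries, and the log2 fold was -0.38 (SE 0.05, adjusted p = 1.7e-07). The other peaks around Med22, described after their values were seen, were also called: 3 fell, by 0.16 to 0.58 on the log2 scale, and 1 inside the neighbour Surf6 rose with hairpin #1 (log2 fold 0.42) and not with #4 (-0.10). Of all peaks 54.1% were called, 26.2% lower and 27.9% higher.

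Med6, whose product links the head to the rest of the complex, fell most on the deposited scale among gene ends not shared with a neighbour. Its peak on chr12:81594946-81595447, over the promoter printed above, held 1431, 1560 and 1536 in NTC, 1168, 1188 and 1151 with hairpin #1, and 1090, 1279 and 1341 with hairpin #4. The groups did not overlap with NTC, and the log2 fold was -0.33 (SE 0.05, adjusted p = 2.4e-06). Both genes sit on chromosomes whose gene ends fell as a group, with a median of -0.31 on chromosome 2 and -0.29 on chromosome 12. With each chromosome centred on its own peaks, Med22 stood at -0.16 (adjusted p = 0.013) and Med6 at -0.15 (adjusted p = 0.017), both still called. On that scale they were not the lowest: Med12 stood at -0.27, Med17 at -0.26, Med20 at -0.25 and Med4 at -0.23. Med20, next to Bysl, went from 1144 ± 31.6 to 1019 ± 44.4 and 918 ± 39.7 (log2 fold -0.24), Med11 from 2574 ± 96.9 to 2292 ± 84.2 and 2194 ± 184 (-0.20), and Med17, which encodes the central head subunit, from 1229 ± 18.6 to 1154 ± 22.9 and 1016 ± 16.8 (-0.18). Med18 (log2 fold -0.00, SE 0.05, adjusted p = 0.97) and Med8 (-0.07, SE 0.05, adjusted p = 0.22) were not called, though Med8 was without hairpin #4 replicate 3 (adjusted p = 0.048).

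The middle module, which holds MED4 and the nuclear receptor-binding subunit MED1, had 6 lower gene ends of 8 and none higher, with a median of -0.15. Those 6 are 75.0%, against 41.1% of all gene-end peaks. At Med4 itself the gene end on chr14:73509724-73510225 held 559, 558 and 516 in NTC, 424, 467 and 462 with hairpin #1 and 455, 459 and 494 with #4. All 6 hairpin libraries were below NTC (log2 fold -0.24, SE 0.06, adjusted p = 0.0017). Centred on gene-end peaks, the fold was -0.13 and was not called (adjusted p = 0.11). The weak peak just inside Med4 (71.6 ± 11.2 in NTC) was not called over both hairpins (log2 fold -0.12, adjusted p = 0.63). Its log2 fold was 0.16 with hairpin #1 and -0.41 with #4. The direct comparison of #4 with #1 was called there, with #4 lower (difference -0.57).

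Med1, whose product is the main contact of Mediator with nuclear receptors, had 1869, 1783 and 1868 in NTC, 1685, 1584 and 1747 with hairpin #1 and 1433, 1518 and 1559 with #4. The 3 groups did not overlap, and the log2 fold was -0.21 (SE 0.05, adjusted p = 0.00016). Med31 went from 1927 ± 96.7 to 1694 ± 75.7 and 1586 ± 30.0 at the end it shares with 4930563E22Rik (-0.23), and all 5 peaks in and around it fell, a count noticed after the values were seen. Of all peaks 26.2% fell. Med7 (-0.16) and Med9 (-0.13), which encode small middle subunits, were also called. The Med7 call was lost without NTC replicate 3 (adjusted p = 0.14), and the Med9 call without NTC replicate 1 (adjusted p = 0.14) or NTC replicate 3 (adjusted p = 0.082). Centred by chromosome, neither was called, at -0.07 for Med7 (adjusted p = 0.27) and -0.04 for Med9 (adjusted p = 0.46). Med26, which takes part in the hand-over to elongation factors, missed the threshold (-0.11, adjusted p = 0.05) and passed it without NTC replicate 1, hairpin #1 replicate 3, hairpin #4 replicate 2 or hairpin #4 replicate 3 (adjusted p = 0.019, 0.031, 0.036 and 0.026). Med21, which pairs with MED7, was not called (-0.08, adjusted p = 0.15). It was called without NTC replicate 1 (adjusted p = 0.049), with equal library totals (-0.10, adjusted p = 0.044) and centred by chromosome (-0.22, adjusted p = 0.00023). The single peak of Med10, on chr13:69809627-69810128 over the promoter printed above, lies inside the annotated gene and so is not a gene-end peak; it went from 745 ± 32.7 to 692 ± 48.4 and 648 ± 23.8 (-0.15, adjusted p = 0.024). The upstream Med10 window at chr13:69802120-69802419 overlapped no tested peak.

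Med19, which has been described both as a middle and as a head subunit, had the most accessible gene end, on chr2:84678030-84678531, shared with Tmx2. It held 4160, 4105 and 4119 in NTC, 3597, 3216 and 3312 with hairpin #1, and 3951, 4068 and 4445 with hairpin #4. The hairpin #1 libraries lay below all others, while those of #4 spanned the NTC range. The log2 fold was -0.29 (SE 0.05, adjusted p = 4.4e-06) with #1 and 0.01 (SE 0.05, adjusted p = 0.91) with #4, and the difference between the hairpins was 0.30 (SE 0.05, adjusted p = 4.9e-06). The fall over both hairpins (-0.14) turned to 0.08 (adjusted p = 0.12) with chromosome 2 centred on its own peaks, where gene ends had a median of -0.39 with #1 and -0.22 with #4.

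Med14, the scaffold on which the core modules are assembled, was the 1 gene end that was higher among the 31 that stand for a gene. Its peak on chrX:12761618-12762119 held 997, 963 and 983 in NTC, 968, 1085 and 1230 with hairpin #1 and 1064, 1150 and 1094 with #4. Hairpin #1 replicate 1 lay within the NTC range, so the groups overlapped. The log2 fold was 0.16 (SE 0.06, adjusted p = 0.017), and neither hairpin #1 (0.15, adjusted p = 0.05) nor the centring by chromosome (0.06, adjusted p = 0.39) gave a call. The call was also lost without NTC replicate 2 (adjusted p = 0.073), without NTC replicate 3 (adjusted p = 0.05) and without hairpin #1 replicate 3 (adjusted p = 0.067). A second peak inside Med14 (chrX:12746712-12747213) went from 115 to 153 and 133 (0.32, adjusted p = 0.03), and the one beside it at 1810030O07Rik was not called.

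In the tail module, the target of many activators, 2 of 9 gene ends were lower, none higher, and the median was -0.07. The share lower was 22.2%, against 41.1% of all gene-end peaks. Med16 went from 1245, 1423 and 1383 in NTC to 1224, 1179 and 1140 with hairpin #1 and 1118, 1237 and 1129 with #4. Every hairpin library lay below NTC (log2 fold -0.20, SE 0.05, adjusted p = 0.001). Med27 went from 998 ± 28.0 to 914 ± 29.3 and 903 ± 26.9 (-0.14, adjusted p = 0.023) and, like Med19 on chromosome 2, stood at 0.08 (adjusted p = 0.16) with that chromosome centred. Its call was also lost without NTC replicate 1 (adjusted p = 0.1), NTC replicate 3 (adjusted p = 0.078) or hairpin #1 replicate 2 (adjusted p = 0.052). Med15, whose product binds SMAD and SREBP factors, Med23, which is bound by ELK1, Med24, Med25, Med28, Med29 and Med30 were not called, with folds between -0.11 (Med24, adjusted p = 0.076) and 0.02 (Med29, adjusted p = 0.74). Med24 was called without hairpin #1 replicate 3 (adjusted p = 0.045) or hairpin #4 replicate 3 (adjusted p = 0.032) and with equal library totals (adjusted p = 0.036), and Med25 was called when centred by chromosome (-0.13, adjusted p = 0.039). In an older scheme that puts Med19, Med27, Med28, Med29 and Med30 in the head and Med14 in the tail, 7 of 12 head gene ends were lower (median -0.14), and of 6 tail gene ends 1 was lower and 1 higher (median -0.05).

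The kinase module, which can block the core complex from binding the polymerase and phosphorylates transcription factors, had 3 lower gene ends of 6 and a median of -0.15. The share lower was 50.0%, against 41.1% of all gene-end peaks. Cdk19 encodes one of the alternative kinases, and its gene end (chr10:40348967-40349468) went from 3074 ± 42.0 to 2847 ± 197 and 2602 ± 333 (-0.18, adjusted p = 0.0043). Med12 (-0.17, adjusted p = 0.0042), which activates the kinase, and Med13 (-0.17, adjusted p = 0.011), which joins the module to the core, were lower by a like amount, and their libraries overlapped with NTC. Med13 was not called without NTC replicate 2 (adjusted p = 0.086) or NTC replicate 3 (adjusted p = 0.059) or centred by chromosome (-0.08, adjusted p = 0.23), and Med12 not without NTC replicate 2 (adjusted p = 0.072), while centred by chromosome it stood at -0.27 and was called. Another of the 3 Med13 gene-end peaks, lower in mean than the one taken for the gene, rose (0.88 over both hairpins, 1.17 with #1). Ccnc, the cyclin gene (0.03, adjusted p = 0.55), Cdk8 (0.01, adjusted p = 0.87) and Med13l (-0.13, adjusted p = 0.091) were not called, though Med13l was without hairpin #1 replicate 3 (adjusted p = 0.031).

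Complete separation of the 6 hairpin libraries from the 3 NTC libraries was seen at 10 of the 31 gene ends, all with the hairpin libraries below (32.3%), against 25.0% of all gene-end peaks with the hairpin libraries below and 8.36% with them above (33.4% in either direction). Over all member peaks it was seen at 66 of 235, 49 below (20.9%) and 17 above (7.23%), against 16.5% and 19.0% of all peaks (28.1% against 35.6% in either direction).

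Larger changes lay mostly away from the gene ends. Of the 40 member gene-end peaks, the highest log2 fold was 0.88 over both hairpins and 1.17 with hairpin #1. Both values were of a Med13 peak that was not among the 31 peaks that stand for a gene, whose highest folds were 0.16 and 0.15. By module, the peaks away from the genes' own ends divided into 19 that rose and 18 that fell of 79 in the kinase module, 8 and 19 of 64 in the tail, 2 and 16 of 39 in the middle and 1 and 5 of 11 in the head, differences between modules that were not tested. The kinase shares, 24.1% and 22.8%, lay near the 29.9% and 24.4% of all such peaks, and the others held smaller shares that rose: 12.5% in the tail, 5.13% in the middle and 9.09% in the head. At least 2-fold and called over both hairpins were 4 member peaks that rose, in Cdk19 and Med23, and 1 that fell, in Cdk8; of all peaks 5.97% rose and 0.96% fell by that much. The Cdk19 peak on chr10:40443324-40443825 was nearly closed in NTC, at 23.4, 29.8 and 28.6 normalised reads. It held 153, 190 and 155 with hairpin #1 and 127, 116 and 81.1 with hairpin #4. The 3 groups were apart, with #1 highest, and the log2 fold was 2.25 (SE 0.17, adjusted p = 4.5e-14) over both, 2.56 with #1 and 1.93 with #4. A second Cdk19 peak, on chr10:40461516-40462017 and also inside Gm32234, went from 31.6 ± 3.64 to 132 ± 7.47 and 94.2 ± 23.0 (1.78, SE 0.17). Along the 21 Cdk19 peaks, 7 rose (33.3%) and 5 fell (23.8%), against 27.9% and 26.2% of all peaks. The largest fall was on chr10:40385352-40385853, from 98.4 ± 1.49 to 52.8 ± 4.36 and 58.3 ± 8.17 (-0.82, adjusted p = 0.00011), with no overlap between hairpin and NTC libraries. Among those outside the naming rule and picked out after their values were seen, chr10:40437736-40438237 rose by a log2 fold of 0.88 and chr10:40437086-40437587 by 0.54, while the highest peak inside the gene body (chr10:40372246-40372747, 2777 in NTC) stood at 0.02 (adjusted p = 0.75).

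Med23 held the other rises of this size, from higher levels in NTC. Its peak on chr10:24886053-24886554 held 279, 285 and 246 in NTC, 755, 664 and 747 with hairpin #1 and 657, 592 and 676 with #4. The lowest hairpin library, at 592, lay above the highest NTC library, at 285, and the log2 fold was 1.33 (SE 0.07, adjusted p = 5.8e-19). The neighbouring peak on chr10:24884236-24884737 went from 88.4 ± 22.3 to 233 ± 11.9 and 181 ± 8.94 (1.23, SE 0.12), and another on chr10:24879712-24880213 from 53.7 ± 7.13 to 128 ± 20.5 and 77.4 ± 10.6 (0.88, SE 0.16). These 3 of the 5 Med23 peaks lie 9976.5 to 16317.5 bases from the nearest gene end, while the gene end itself was not called (-0.03, adjusted p = 0.72). Its level was 1190 ± 32.8, 1216 ± 49.4 and 1131 ± 156. The remaining peak (chr10:24895854-24896355) fell by 0.60 on the log2 scale.

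In Cdk8 the direction was the other way. The peak on chr5:146248701-146249202 held 224, 230 and 223 in NTC, 80.0, 91.7 and 85.8 with hairpin #1 and 80.5, 107 and 77.6 with #4. It fell by 1.37 on the log2 scale (SE 0.13, adjusted p = 2.4e-11), with folds of -1.38 with #1 and -1.35 with #4, and the difference between the hairpins was not called (0.03, SE 0.15, adjusted p = 0.89). A peak close by, on chr5:146246349-146246850, went from 458 ± 24.9 to 387 ± 22.9 and 258 ± 25.0, so that #4 was lower than #1 (-0.59, SE 0.09, adjusted p = 9.4e-07). The Cdk8 gene end, which was not called, held 697 ± 32.5, 737 ± 6.67 and 669 ± 12.6.

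**Figure D3:**
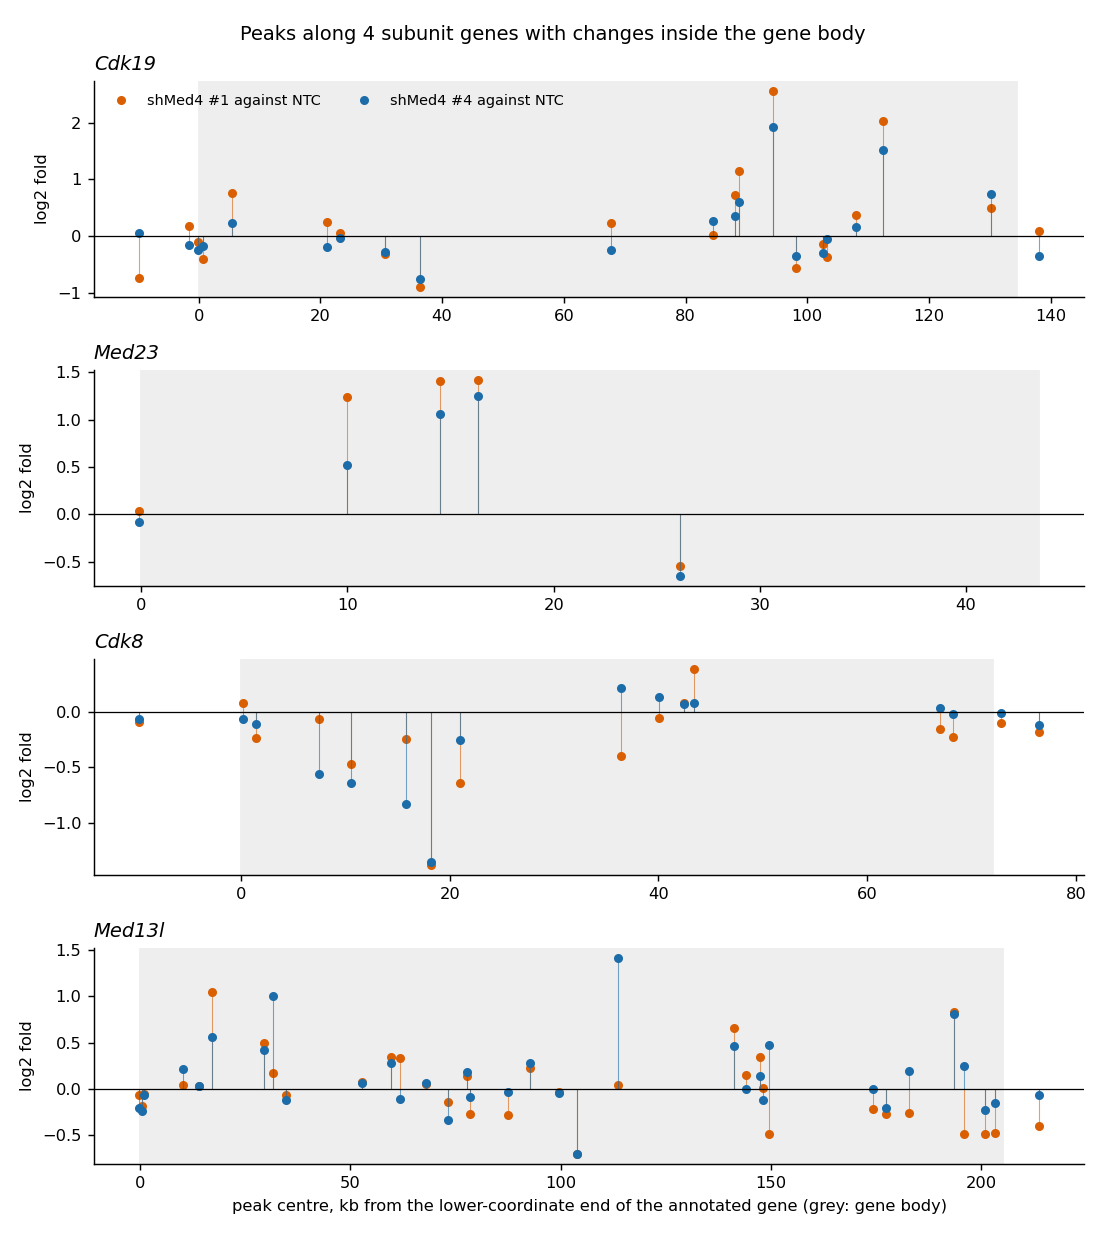
Log2 fold of each peak along Cdk19, Med23, Cdk8 and Med13l against NTC, by distance of the peak centre from the end of the gene with the lower coordinate; the gene body is grey and each hairpin has its own colour. The rises in Cdk19 and Med23 (up to 2.56 with #1) and the fall in Cdk8 lie inside the grey span, away from the gene ends.

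Med13l, the longest gene of the family and a paralogue of Med13, had 9 peaks that rose and 4 that fell of 34 (26.5% and 11.8%, against 27.9% and 26.2% of all peaks). The peak on chr5:118664000-118664501 went from 617 ± 40.7 to 378 ± 11.2 and 380 ± 2.04 (-0.70, SE 0.07, adjusted p = 1.8e-11), and chr5:118753595-118754096 from 165 ± 20.1 to 294 ± 35.2 and 291 ± 42.7 (0.82, SE 0.10, adjusted p = 1.1e-08). In Med13, a peak on chr11:86324187-86324688, 33158.5 bases inside the gene from its start, held 1316, 1268 and 1253 in NTC, 658, 643 and 609 with hairpin #1 and 931, 948 and 1097 with #4. It fell with both hairpins (log2 folds -1.01 with #1 and -0.37 with #4), and the difference between the hairpins was 0.64 (SE 0.06, adjusted p = 2.2e-10). Upstream of Ccnc, a peak on chr4:21722833-21723334, 4617.5 bases before the start, went from 498 ± 30.5 to 887 ± 25.7 and 803 ± 20.2 (0.76, SE 0.06, adjusted p = 3e-14), with no overlap between hairpin and NTC libraries, while the Ccnc gene end was not called. The upstream peak was picked out after its values were seen. In Med15, a peak on chr16:17656289-17656790 fell from 91.8 ± 11.3 to 57.5 ± 6.46 and 56.9 ± 19.5 (-0.70, adjusted p = 0.0025), and its call with hairpin #4 was lost without hairpin #4 replicate 3 (-0.46, adjusted p = 0.073).

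**Figure D4:**
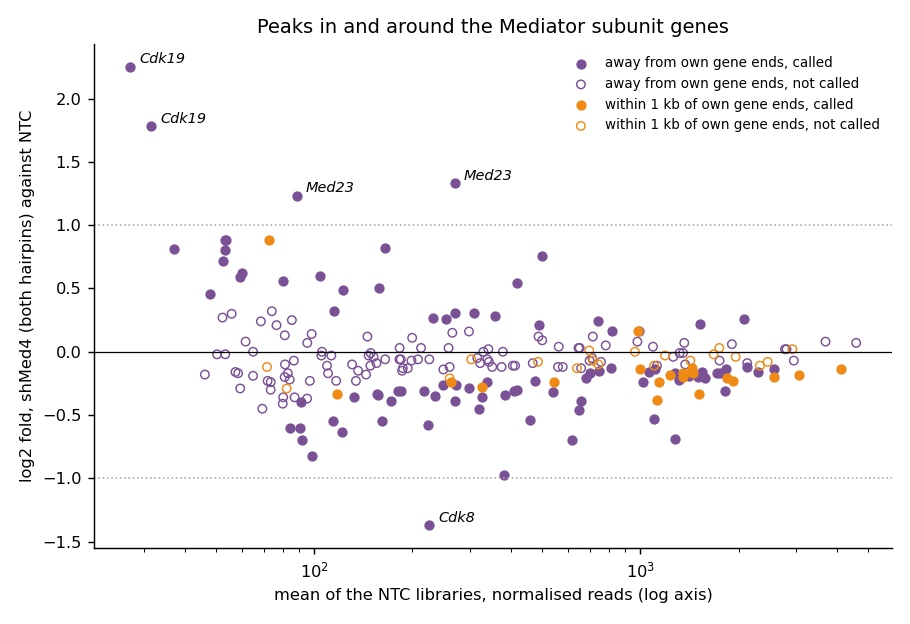
All 235 member peaks by their NTC mean (log axis) and their log2 fold over both hairpins; filled points were called, and colour separates peaks within 1 kb of the gene's own ends from the rest. The 5 named points beyond the dotted lines at 1 and -1 belong to Cdk19, Med23 and Cdk8, and the gene-end peaks lie between -0.38 and 0.88.

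Each hairpin alone gave a similar count of calls. With hairpin #1, 35 member peaks rose and 67 fell of 235 (43.4%), where 52.7% of all peaks were called, 27.9% higher and 24.9% lower, and the median was -0.09. With hairpin #4, 36 rose and 76 fell (47.7%), where 50.4% of all peaks were called, 26.2% higher and 24.3% lower, and the median was -0.11. At gene ends, hairpin #1 gave 10 lower and 1 higher of 31 (35.5%, against 46.7% of all gene-end peaks, 34.8% lower and 11.9% higher) and hairpin #4 gave 18 lower and 1 higher (61.3%, against 49.9%, 38.0% lower and 11.9% higher). The 18 were 5 head, 5 middle, 4 tail and 4 kinase genes, and the 10 were 4 head, 4 middle, 1 tail and 1 kinase genes. The gene end that was higher was Ccnc with hairpin #1 (0.13, adjusted p = 0.027) and Med14 with hairpin #4 (0.17, adjusted p = 0.031). Both comparisons share the NTC libraries.

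The direct comparison of hairpin #4 with hairpin #1 called 31 member peaks higher with #4 and 45 lower (32.3%), where 41.6% of all peaks were called, 20.4% higher and 21.2% lower. Among the 31 gene-end peaks that stand for a gene it called 2 higher, Med18 and Med19, and 6 lower (25.8%, against 30.6% of all gene-end peaks, 15.2% higher and 15.4% lower). Lower with #4 were Med1, Med9, Med15, Med17, Med20 and Ccnc. Med15 held 1710, 1600 and 1723 in NTC, 1755, 1817 and 1785 with #1, and 1457, 1576 and 1568 with #4. All libraries of #4 were below the rest and those of #1 above them, with a difference of -0.22 (SE 0.05, adjusted p = 0.0008). Ccnc was likewise 1911 ± 36.8 with #1 and 1668 ± 48.9 with #4, around 1746 ± 19.3 in NTC (difference -0.20, SE 0.05, adjusted p = 0.0016).

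Inside gene bodies and in flanks the hairpins differed by larger amounts. The peak that was lowest with #4 relative to #1 lay in Med27, which encodes a tail subunit at the junction with the head, on chr2:29358634-29359135, 12074.5 bases into the gene. It held 962, 1016 and 959 in NTC, 1537, 1468 and 1538 with hairpin #1, and 704, 673 and 736 with hairpin #4. The 3 groups were fully apart, with a log2 fold of 0.63 with #1 and -0.48 with #4 (SE 0.06 each) and a difference of -1.10 (SE 0.06, adjusted p = 2e-17). A peak beyond the end of Med27, on chr2:29532111-29532612, was low in the #1 libraries, at 341 ± 40.1 against 650 ± 28.8 in NTC and 658 ± 16.5 with #4 (difference 0.95, SE 0.08, adjusted p = 1.4e-12). Beside Med24, a peak inside Csf3, the gene of granulocyte colony-stimulating factor (chr11:98700959-98701460), held 380, 388 and 378 in NTC, 124, 130 and 119 with #1 and 320, 320 and 279 with #4. It fell by 1.61 with #1 and 0.32 with #4 on the log2 scale (difference 1.29, SE 0.10, adjusted p = 3.9e-13). In Med9, chr11:59951638-59952139 went from 121 ± 5.04 to 53.3 ± 8.55 with #1 and 115 ± 10.9 with #4 (difference 1.10), and in Med13l, chr5:118673800-118674301 went from 52.5 ± 9.13 to 54.2 ± 12.8 and 140 ± 18.2 (difference 1.37, SE 0.20, adjusted p = 7.6e-07).

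**Figure D5:**
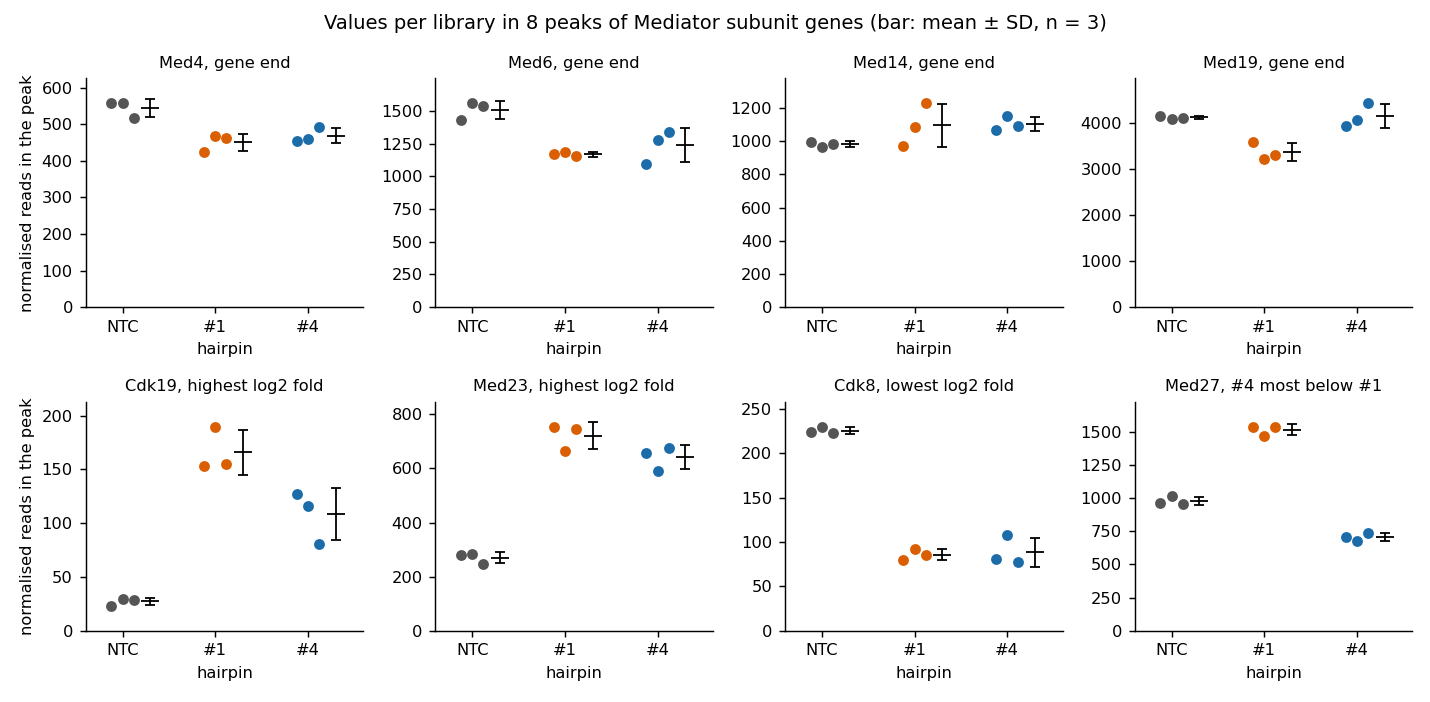
Normalised reads per library (points) with mean ± SD (bars, n = 3) in 8 member peaks, for NTC, hairpin #1 and hairpin #4. The top row shows gene ends of Med4, Med6, Med14 and Med19; the bottom row shows the Cdk19 peak rising from 27.3 to 166 and 108, the Med23 peak from 270 to 722 and 641, the Cdk8 peak falling from 225 to 85.8 and 88.5, and the Med27 peak moving to 1514 with #1 and 704 with #4.

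Genes of the machinery that Mediator works with are given beside these, with 1 gene-end peak each for 78 of 82 genes. Over both hairpins 39 were lower and 1 higher, Tcea1 at 0.14 (51.3% called, against 53.2% of all gene-end peaks), and their median was -0.12. Of the 12 RNA polymerase II subunit genes 6 were lower (median -0.12), led in adjusted p by the largest subunit gene Polr2a, which went from 1979 to 1552 and 1441 (log2 fold -0.40, adjusted p = 1.4e-08), then Polr2c (-0.32) and Polr2g (-0.31). Of 30 general transcription factor genes 13 were lower (median -0.11), led by the TFIID subunit gene Taf4 (-0.47), the TFIIH assembly factor gene Mnat1 (-0.47) and the TFIIB gene Gtf2b (-0.31). Of 24 elongation and pausing factor genes 12 were lower (median -0.12), led by Cdk9 (-0.38), Nelfb (-0.34) and Ssrp1 (-0.25), all on chromosome 2. Of 13 cohesin and coactivator genes 9 were lower (median -0.19), led by Ncoa3 (-0.24), Smc1a (-0.23) and Ncoa1 (-0.39). Ncoa3 was not called with hairpin #4 alone (-0.12, adjusted p = 0.052). Taf4 and Ncoa3 also lie on chromosome 2, and Mnat1 and Ncoa1 on chromosome 12. All gene ends there had medians of -0.31 and -0.29, and the part of the chromosome in these falls was not tested. None of the 78 was called at 2-fold or more. The lists overlap, so their sizes add to more than 78. The peak taken for Paf1 is also the gene end of Med29, so it counts among both the machinery genes and the subunit genes.

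At the edge of the 10 kb window, the last peaks inside were a Med17 flank peak at 9796.5 bases from the gene (55.8 in NTC, log2 fold 0.30) and a Cdk19 flank peak at 9797.5 bases (157 in NTC, -0.34). The first outside were a Med15 flank peak at 10199.5 bases (3576 in NTC, -0.04) and a Med25 flank peak at 10284.5 bases (540 in NTC, -0.40).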

How the data were processed

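ATAC-seq was made from 9 libraries of the D2A1-d line. Per the submitters' processing notes, Trim Galore, BWA, MACS2, featureCounts from Subread and mm10 (GRCm38) were used, with no versions listed. The sources used here do not state whether MACS2 ran on single or merged libraries. The authors deposited a signal value per peak and library, which the deposited table's name gives as DESeq2-normalised counts. From the spacing of the values in all 9 columns, every value was a whole multiple, within 0.001 of a read, of what 1 read was worth, with 110 to 247 reads per peak at the median, so low peaks carry more counting error.

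Values were tested as log2(value + 1) with limma 3.58.1 in R 4.3.3: trended variance, 3 group means, all 9 libraries, no batch term, peaks with a mean of at least 10 (5 of 146734 removed), and Benjamini-Hochberg adjustment over the 146729 tested peaks in each comparison. The tests are two-sided. Scripts were tested on simulated data. edgeR 4.0.16 and DESeq2 1.42.0 on the recovered reads were alternatives and called 81418 and 75894 peaks over both hairpins, beside 79398 in limma. Gene positions and promoter windows came from RefSeq, GRCm38.p6.

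Named peaks were each gene's highest gene-end peak, every Med4 peak (1 is not reported here), member peaks called at 2-fold or more with a mean of at least 50, the 5 highest and 5 lowest called member peaks of each hairpin and of hairpin #4 against #1, and the 3 lowest p of each background list. The members and lists were chosen with earlier results of these data known. Alternatives covered pseudocount, filter, scaling, the libraries in the fit, threshold, tool, window and module scheme, and centring by chromosome was chosen after seeing the data.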

Additional observations from a re-analysis of the deposited data

Results flagged for a closer look

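The 25 peaks below are those taken by the naming rule for which the test of hairpin #4 against hairpin #1 itself was called (limma, adjusted p under 0.05), so that the effects of the hairpins differed. All values are log2 differences, #4 minus #1.

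At gene ends the difference was 0.30 at Med19 and 0.17 at Med18, with #4 higher. It was -0.22 at Med15, -0.20 at Ccnc, -0.18 at Med17, -0.15 at Med1, -0.15 at Med20 and -0.14 at Med9, with #4 lower. At the weak peak just inside Med4 (chr14:73510689-73511190), also within 1 kb of the gene's end, it was -0.57, with #4 lower.

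Away from gene ends, #4 was higher in the Med13l peaks at chr5:118673800-118674301 (1.37) and chr5:118709741-118710242 (0.97), the Csf3 peak beside Med24 (1.29), the Med9 peak at chr11:59951638-59952139 (1.10) the Med27 flank peak at chr2:29532111-29532612 (0.95) and the Med13 peak at chr11:86324187-86324688 (0.64). It was lower in the Cdk19 peaks at chr10:40443324-40443825 (-0.63) and chr10:40461516-40462017 (-0.51), both above NTC with each hairpin. Hairpin #4 was lower too in the Med23 peaks at chr10:24879712-24880213 (-0.72) and chr10:24884236-24884737 (-0.36) and in the Cdk8 peak at chr5:146246349-146246850 (-0.59). It was also lower in the Med27 peaks at chr2:29358634-29359135 (-1.10) and chr2:29402643-29403144 (-0.72), the Med9 flank peak at chr11:59940298-59940799 (-0.84), the Med26 flank peak inside Slc35e1 at chr8:72485760-72486261 (-0.81) and the Med7 flank peak at chr11:46447494-46447995 (-0.72). The Med9 flank peak held 68.9 ± 12 with #1 and 38.4 ± 10.1 with #4, and its call was lost without hairpin #1 replicate 3 (-0.71, adjusted p = 0.056). The Med7 peak held 67.0 ± 13.8 and 39.9 ± 5.28, and its call was lost without hairpin #1 replicate 1 (-0.57, adjusted p = 0.096).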

How the results depend on the processing

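The count of member peaks called depended on the window. Over both hairpins it was 110 within 10 kb, 68 in gene bodies, 21 within 1 kb of gene ends and 265 with 50 kb flanks. With hairpin #1 it was 102, and 14 and 248 for the last windows, and 67 at an adjusted p under 0.01. With hairpin #4 it was 112, and 73, 23 and 252 in the same windows, and 72 at the stricter threshold. Between the hairpins it was 76, then 47, 12 and 191. These windows hold 235, 141, 40 and 526 peaks. Centring each library on its gene-end peaks left 9 subunit gene ends called (3 higher, 6 lower) instead of 17, and 25 machinery genes (7 higher, 18 lower) instead of 40. The share of higher among all called peaks went from 51.56% to 69.91%. Centred by chromosome, an alternative chosen after seeing the data, 14 gene ends were lower and none higher, and Med19 and Med27 turned to 0.08; the cause was not tested. Leaving out each library in turn gave 89 to 117 called member peaks over both hairpins, 80 to 113 with #1, 88 to 114 with #4, 65 to 79 between them, 12 to 20 subunit gene ends and 33 to 51 machinery genes. Of 1458 recomputed values of named peaks, 1398 kept their direction and their side of the threshold, 36 lost the call, 22 gained one and 2 turned.

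Replicate numbers did not pair the libraries: the deviations of same-numbered libraries correlated at -0.01 to 0.07 over 9 pairs. With the replicate block, 113 member peaks were called over both hairpins, 112 with #1, 114 with #4, 85 between them, 18 subunit gene ends, Med26 being added, and 46 machinery genes. With 3 libraries a group and 44753019 reads in the shallowest, small differences in peaks of few reads were not detectable.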
